A study of Arabidopsis thaliana with 26 samples.

Results

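The 5′ external transcribed spacer (5′ ETS) is cut out of the ribosomal RNA precursor and then eliminated from its 3′ end, and its degradation intermediates start at the upstream cleavage site P. The 17 3′ ends described here, P140 to P156, are named by their distance in nt from P. They were chosen by their place alone, as all ends of this stretch in reads with no added nucleotide. They held 5826 of 173861 untailed reads, which is 3.35%, out of 389 positions at which any untailed read ended. The number of these reads per library ranged from 13 to 863.

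The 3′ ends were read by 3′RACE-seq, in which an adapter is joined to RNA 3′ ends and P-P1 molecules are then amplified with a primer in the 5′ ETS. The 26 libraries came from rosette leaves of *Arabidopsis thaliana* of the Col-0 accession, with 13 genotypes and 2 biological replicates each, which are pools of plants grown at different times. The compared backgrounds were Col-0, mtr4, rrp6L2 and RRP44KD rrp6L2. In each of these 4 backgrounds, RRP41 was either endogenous, or the null rrp41 mutation was complemented with a tagged RRP41WT or RRP41Pi-Cat- transgene driven by the RRP41 promoter, and RRP41Pi- was present in the Col-0 background only. The rrp6L2, mtr4 and rrp41 mutations are T-DNA insertions, and RRP44KD is an artificial miRNA that is driven by a promoter of mesophyll cells, so RRP44 is lowered and not removed, and in those cells. The null rrp41 mutation is lethal without a transgene. The reads cover the 5′ ETS alone, so the RNA levels of the mutated genes could not be checked in them.

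The RNA exosome is the main 3′-5′ RNA degradation complex of eukaryotes. Its core, Exo9, is a ring of subunits, and in plants RRP41 gives this ring a phosphorolytic activity, which uses phosphate instead of water and releases few nucleotides per binding event. RRP44 is a hydrolytic exoribonuclease that associates with Exo9. RRP6L2 is a hydrolytic exoribonuclease that shares rRNA substrates with the exosome, but by the paper no physical association with Exo9 had been reported. MTR4 is the RNA helicase that assists the exosome in the nucleolus. RRP41Pi- has a changed phosphate binding site and RRP41Pi-Cat- also has a changed catalytic site, so both are grouped here as inactive Exo9, while endogenous RRP41 and RRP41WT are grouped as active Exo9. All values are percentages, and a relative rise of these ends cannot be told apart from a fall of other P-P1 species.

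The stretch that holds the 17 positions is given 5′ to 3′, from 19 nt before the first of them to 5 nt after the last, with the bases P140 to P156 in capitals. In the RefSeq genome TAIR10.1 the capitals are at chr3:14197254-14197270 on the plus strand. No annotated gene or exon overlaps them, and the annotated rRNA gene AT3G41768 starts after a gap of 406 nt. A second exact copy lies at chr2:3283-3299, at the same distance from the rRNA gene AT2G01010.
P140 to P156: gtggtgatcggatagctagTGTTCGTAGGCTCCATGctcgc
The same stretch is repeated with capitals at the ends called lower with inactive Exo9 over all backgrounds, and then at the ends called lower when RRP44 was downregulated in rrp6L2.
lower with inactive Exo9: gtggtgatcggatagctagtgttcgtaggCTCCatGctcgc
lower in the RRP44KD rrp6L2 background: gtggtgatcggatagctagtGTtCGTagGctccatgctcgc

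One feature of the mapping bears on each value. The last 20 nt of a read had to match the reference, and all 5826 reads did so. Position 137, at 14197251 on chromosome 3, is variable: 47.3% of the 48154 untailed reads ending from 177 to 200 carried T137C (reference base, position counted from P, base in the read). As this base lies within the last 20 nt of every end from P140 to P156, molecules with C at 137 could not be recorded there, and 0 of the 5826 reads carried it. Recording of these molecules resumes at P157. Of the longer untailed reads, between 49.4% and 49.8% matched the reference in the stretch that each of the 17 ends requires, against 94.7% for P157. The share of T137C among untailed reads ending from P157 to 200 differed between libraries, from 25.7% to 81.1%. It was 38.3% ± 4.76 (SD, n = 4) in the active and 73.8% ± 3.70 (SD, n = 2) in the inactive libraries of the rrp6L2 background, but 66.0% ± 12.1 and 67.0% ± 11.02 (SD, n = 4 each) in the Col-0 background. The comparisons of the summed share and the scans are therefore given with 2 denominators, all untailed reads and the untailed reads that end from 140 to 200 with the reference base at 137, called reference-base reads.

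The ends from P140 to P156 made up 3.298% of untailed reads in replicate 1 of Col-0 (95% Wilson interval 2.97 to 3.66) and 2.66% in replicate 2 (1.96 to 3.62). They made up 2.09% and 1.12% in rrp41 RRP41WT, 2.38% and 2.38% in rrp41 RRP41Pi-, and 2.02% and 1.502% in rrp41 RRP41Pi-Cat-. The active and inactive libraries of the Col-0 background thus overlapped.

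In the rrp6L2 background they were 4.64% and 2.44% with endogenous RRP41, 3.77% and 3.23% with RRP41WT, and 1.19% and 1.79% with RRP41Pi-Cat-. In the RRP44KD rrp6L2 background they were 3.05% and 3.37%, 2.50% and 1.64%, and 0.716% and 0.612% for the same 3 forms of RRP41. In the mtr4 background they were 5.15% and 9.51%, 6.54% and 5.29%, and 2.03% and 4.43%. In these 3 backgrounds each inactive library was below each active library. Replicate 2 of mtr4 stands apart at 9.51% (8.86 to 10.2), and results that rest on it are also given without it. Intervals cover counting error only.

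**Figure D1:**
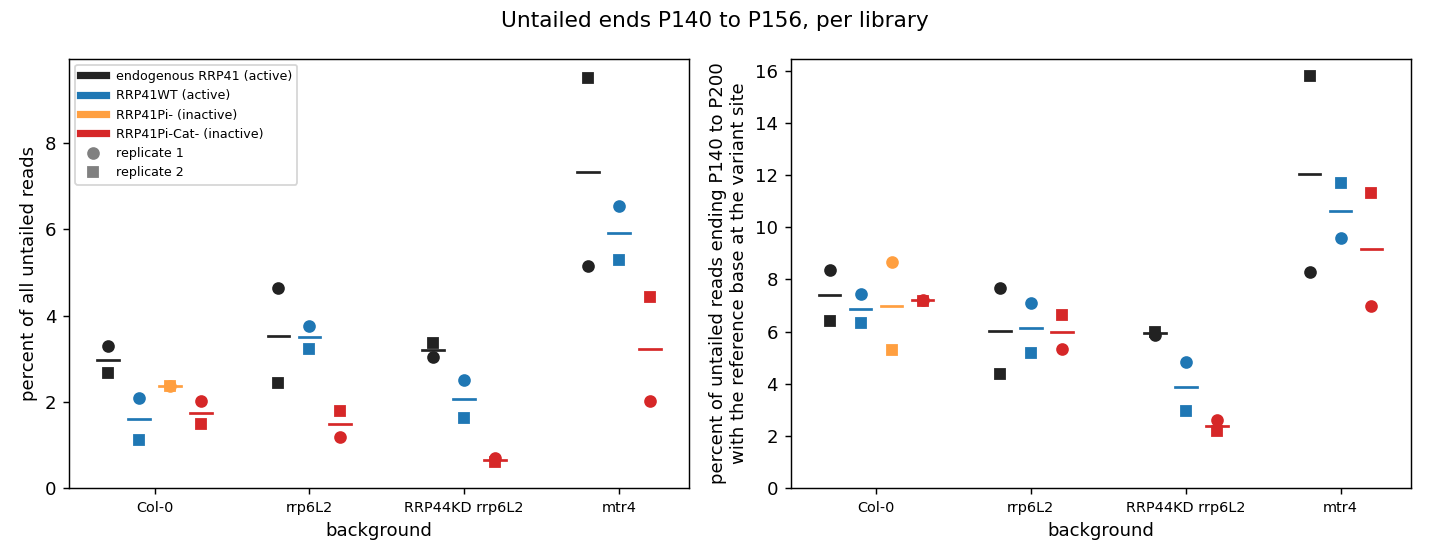
Share of untailed ends P140 to P156 in each of the 26 libraries (points, 1 per library; short lines are means of 2 replicates), as percent of all untailed reads (left) and of reference-base reads (right), by background. The inactive libraries sit below the active ones on the left in 3 backgrounds, while on the right the rrp6L2 libraries with RRP41Pi-Cat- (5.33 and 6.63) lie within the range of their active libraries (4.39 to 7.66).

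With inactive Exo9 the share of these ends decreased by 1.91 percentage points on average over the 4 backgrounds (two-sided exact permutation test within backgrounds, p = 0.000555, exact adjusted p = 0.00554 over the 10 tests of this kind). The difference was -0.22 points in the Col-0 background (p = 0.714 in the exact test of 4 against 4 libraries), -2.03 in rrp6L2, -1.98 in RRP44KD rrp6L2 and -3.39 in mtr4. With 4 against 2 libraries an exact test cannot go below 0.0667 in the last 3. Of reference-base reads, the mean difference was -1.21 points (exact p = 0.153), and the fall in the share of all untailed reads is therefore not shown within the molecules that could be recorded. By this denominator, the share was 7.14% ± 0.961 with active and 7.09% ± 1.37 with inactive Exo9 in Col-0 (SD, n = 4 each), and 6.09% ± 1.55 (n = 4) and 5.98% ± 0.921 (n = 2) in rrp6L2. It was 4.92% ± 1.41 and 2.403% ± 0.303 in RRP44KD rrp6L2, where the libraries still did not overlap, and 11.3% ± 3.28 and 9.15% ± 3.07 in mtr4, where they did.

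Loss of MTR4, with active Exo9, went along with a share of 6.62% ± 2.02 (SD, n = 4) against 2.29% ± 0.923 (SD, n = 4) in Col-0, a difference of 4.33 points (exact permutation p = 0.0286, the smallest that 4 against 4 libraries allow; exact adjusted p = 0.0714). The 4 libraries of each background did not overlap. Without replicate 2 of mtr4 the difference was 3.37 points, and of reference-base reads it was 4.20 points (exact p = 0.0571). Against rrp6L2 the difference was 3.10 points (exact p = 0.0286, exact adjusted p = 0.0714) and 5.24 points of reference-base reads (exact p = 0.0286). In all untailed reads this p rises above 0.05 (0.0571 to 0.0857 in the exact test) without mtr4 replicate 2, rrp6L2 replicate 2, or replicate 1 or 2 of rrp6L2 rrp41 RRP41WT, with differences of 2.14, 2.75, 3.19 and 3.01 points in this order.

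The differences of mtr4 passed 0.05 before but not after adjustment, and no other difference between backgrounds in the summed share passed it. The share was 3.52% ± 0.922 in rrp6L2 (SD, n = 4), 1.23 points above Col-0 (exact p = 0.143) but 1.05 points below it in reference-base reads (exact p = 0.314). It was 2.64% ± 0.758 in RRP44KD rrp6L2 (SD, n = 4), 0.88 points below rrp6L2 (exact p = 0.229) and 1.17 points below it in reference-base reads (exact p = 0.314). Libraries with RRP41WT differed from those with endogenous RRP41 by -0.99 points over the 4 backgrounds (exact p = 0.11), and by -0.96 points in reference-base reads (exact p = 0.377). The change with inactive Exo9 in mtr4 differed from that in the other 3 backgrounds by -1.98 points (exact p = 0.107, 2 against 6 changes), and by -1.29 points in reference-base reads (exact p = 0.464).

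The 17 positions were not used evenly. P150, which ends on the first base of the run ctcc, was the most frequent with 1107 reads, followed by P152 with 567, P149 with 496, P144 with 410, P151 with 386, P145 with 376 and P141 with 341. P154 and P155 held 41 and 27 reads and were left out of the scan over positions, which required 50 untailed reads in the 26 libraries and left 15 of the 17. The mean share fell from 1.81% at P157 to 0.0705% at P156. Part of this step coincides with the recording limit: in reference-base reads the means are 0.801% and 0.132%, with ranges of 0 to 4.03% and 0 to 0.788% that overlap.

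P150 was low in the Col-0 background and, with active Exo9, the most frequent of the 17 ends by mean in the other 3. In Col-0 it took 0.197% and 0.0683% of untailed reads, in rrp41 RRP41WT 0.113% and 0.239%, in RRP41Pi- 0.0643% and 0.193%, and in RRP41Pi-Cat- 0.0971% and 0.0264%. These libraries held between 1 and 20 reads at P150, and 3 reads, taken as the floor, correspond to 0.0178% to 0.205% depending on the library.

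In rrp6L2 the P150 share was 0.819% and 0.470% with endogenous RRP41, 0.677% and 0.657% with RRP41WT, but 0.0595% and 0.222% with RRP41Pi-Cat-. In RRP44KD rrp6L2 it was 0.856% and 1.25%, 0.999% and 0.523%, and 0.156% and 0.188%. In mtr4 it was 1.37% and 1.13%, 1.61% and 0.882%, and 0.307% and 0.584%. In all 3 backgrounds the active and inactive libraries were fully separated, with mean ratios of 4.66, 5.26 and 2.80, whereas in Col-0 they overlapped with a ratio of 1.62. In reference-base reads the 3 backgrounds were also separated, with ratios of 2.08, 2.71 and 1.65, and the ratio in Col-0, where libraries overlapped, was 2.12, so the ratios do not set Col-0 below the others by this denominator.

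**Figure D2:**
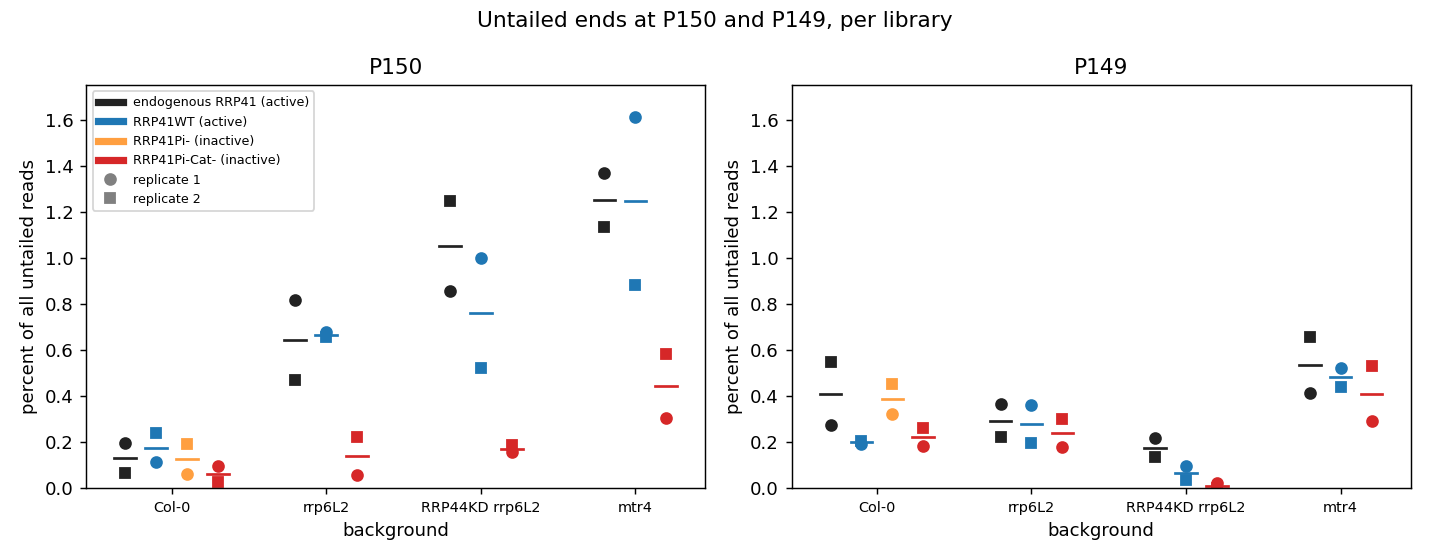
Percent of untailed reads that end at P150 (left) and at P149, 1 nt shorter (right), in each library (points; lines are means of 2 replicates), by background and form of RRP41. At P150 the RRP41Pi-Cat- libraries lie below the active libraries in rrp6L2, RRP44KD rrp6L2 and mtr4, and at P149 they overlap in Col-0, rrp6L2 and mtr4.

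Across positions, 5 of the 15 scanned ends were lower with inactive Exo9 at an adjusted p under 0.05 (exact permutation test per position within backgrounds, Benjamini-Hochberg over 110 positions, given as exact adjusted p), and none was higher. In the whole scan 16.4% of positions were lower and 13.6% were higher. The 5 were P150, P151, P152, P153 and P156, that is, each scanned position from P150 on, while the 10 scanned positions from P140 to P149 were not called. The calls rest on means over the backgrounds. In the Col-0 background alone the differences at the 5 ends were -0.059, -0.0097, -0.118, 0.017 and -0.028 points in this order, and the libraries overlapped at each. The mean difference at P150 was -0.53 points (exact adjusted p = 0.00031). Its neighbour P149 differed by -0.06 points (exact adjusted p = 0.273).

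P151 fell by 0.21 points (exact adjusted p = 0.000962 in the same exact test). Its share was 0.484% ± 0.157 in active mtr4 libraries (SD, n = 4) and 0.102% ± 0.0618 in inactive ones (SD, n = 2), and 0.295% ± 0.0942 and 0.0165% ± 0.0233 in RRP44KD rrp6L2. P152 fell by 0.26 points (exact adjusted p = 0.00143). It was 0.719% ± 0.199 in active mtr4 and 0.257% ± 0.0745 in inactive mtr4 libraries, and its means in active Col-0 (0.262% ± 0.149) and active rrp6L2 libraries (0.265% ± 0.0784) were close, with overlapping libraries.

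P153 fell by 0.14 points as the mean over the 4 backgrounds (exact adjusted p = 0.0115). In mtr4 it was 0.481% ± 0.0437 with active and 0.117% ± 0.0411 with inactive Exo9, a difference of -0.364 points. P156 fell by 0.10 points (exact adjusted p = 0.00349), and was highest in mtr4, where it was 0.323% and 0.475% with endogenous RRP41, 0.235% and 0.252% with RRP41WT, and 0% and 0.0365% with RRP41Pi-Cat-. Elsewhere P156 was at most 0.108%. Its difference with inactive Exo9 was -0.303 points in mtr4, -0.028 in Col-0, -0.030 in rrp6L2 and -0.057 in RRP44KD rrp6L2. These calls were also made in reference-base reads for P150 (-0.70 points, exact adjusted p = 0.000432), P151 (exact adjusted p = 0.00517), P152 (exact adjusted p = 0.00649) and P156 (exact adjusted p = 0.00286), and not for P153 (exact adjusted p = 0.0512), so 4 of 15 were lower where 29.4% of the 51 positions from 140 to 200 were. P147 was higher by 0.13 points by this denominator (exact adjusted p = 0.0359), the 1 member among the 25.5% of positions called higher.

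**Figure D3:**
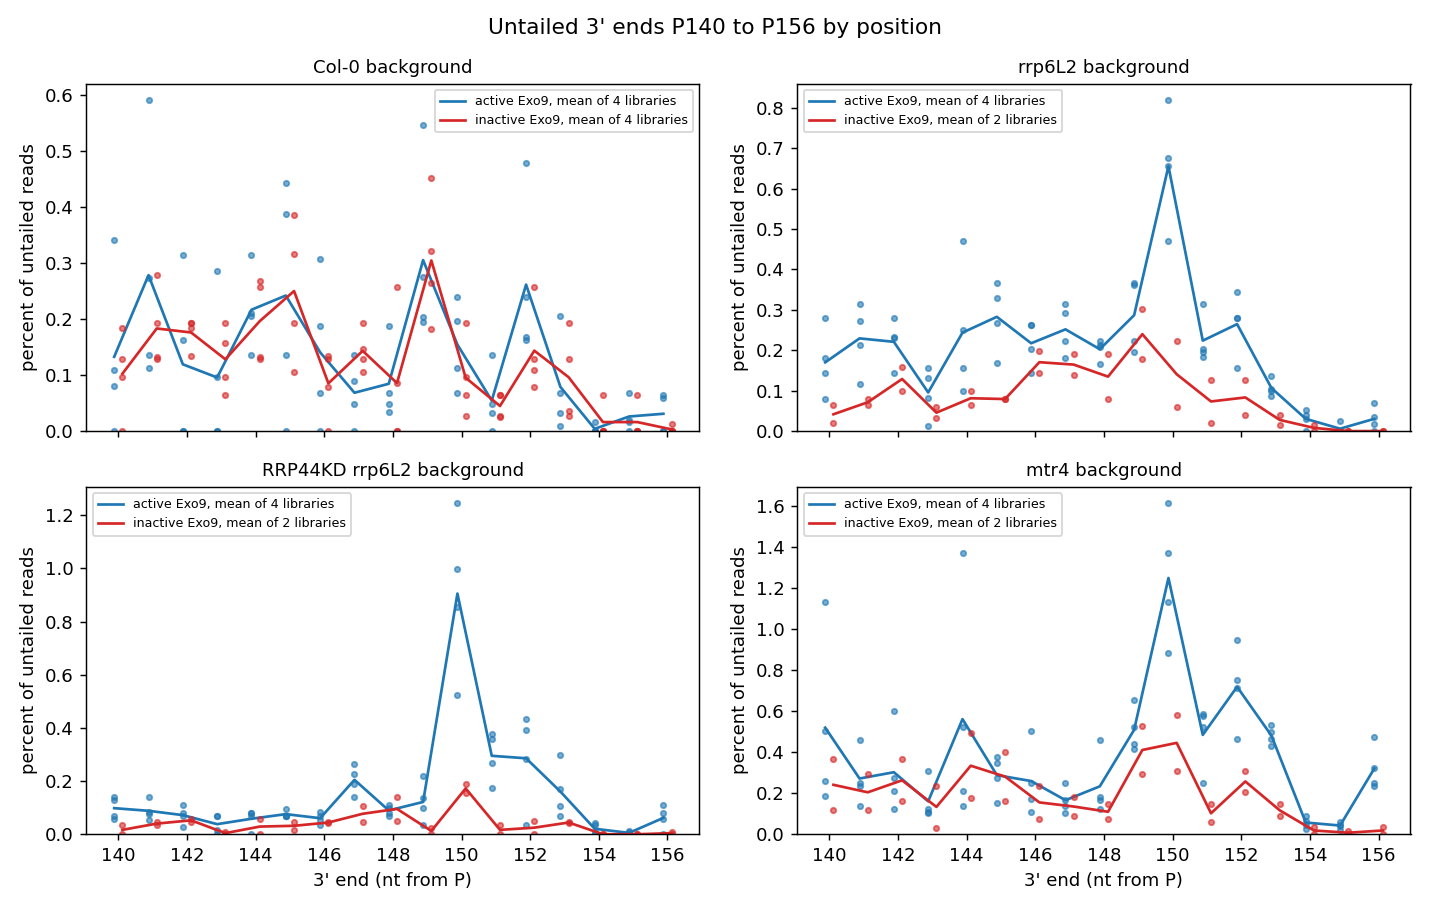
Percent of untailed reads at each 3′ end from P140 to P156 (x axis, nt from P) in the 4 backgrounds, with 1 point per library and lines through the means of active and inactive Exo9 libraries; the y axes differ between panels. P150 is the highest point of the active mean in rrp6L2 (0.656%), RRP44KD rrp6L2 (0.906%) and mtr4 (1.25%), and the Col-0 means stay at or below 0.305%.

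None of the shorter ends was called. P141 was led by Col-0 replicate 1 (0.591%) and differed by -0.09 points with inactive Exo9 (exact adjusted p = 0.107). P144 differed by -0.11 points (exact adjusted p = 0.545). Its range in active mtr4 libraries was 0.138% to 1.37%, with the highest value in replicate 2 of mtr4, which also had 1.13% at P140. In the mtr4 background P144 was higher in replicate 2 than in replicate 1 with each form of RRP41. The values were 0.525% against 0.212% with RRP41WT and 0.492% against 0.1755% with RRP41Pi-Cat-. P145 was 0.242% ± 0.209 with active and 0.25% ± 0.125 with inactive Exo9 in Col-0 (SD, n = 4 each), and P149 was 0.305% ± 0.165 and 0.304% ± 0.113. The makeup of these reads also shifted. The 9 shortest ends held a share of them that was higher by a mean of 15.3 points with inactive Exo9 (exact permutation test within backgrounds over the 25 libraries with at least 20 such reads, p = 0.00635, exact adjusted p = 0.0317). This share does not depend on which of the 2 denominators is used, but it comes from the same reads as the scan. It rises when the ends from P150 on fall, so it is no separate support for those calls. It was 31.6% ± 9.72 in active RRP44KD rrp6L2 (SD, n = 4) and 56.3% in the 1 inactive library that had enough reads, 39.3% ± 14.7 and 56.1% ± 5.06 in mtr4, 54.1% ± 2.62 and 63.3% ± 11.9 in rrp6L2, and 55.8% ± 20.6 and 66.3% ± 11.2 in Col-0.

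**Figure D4:**
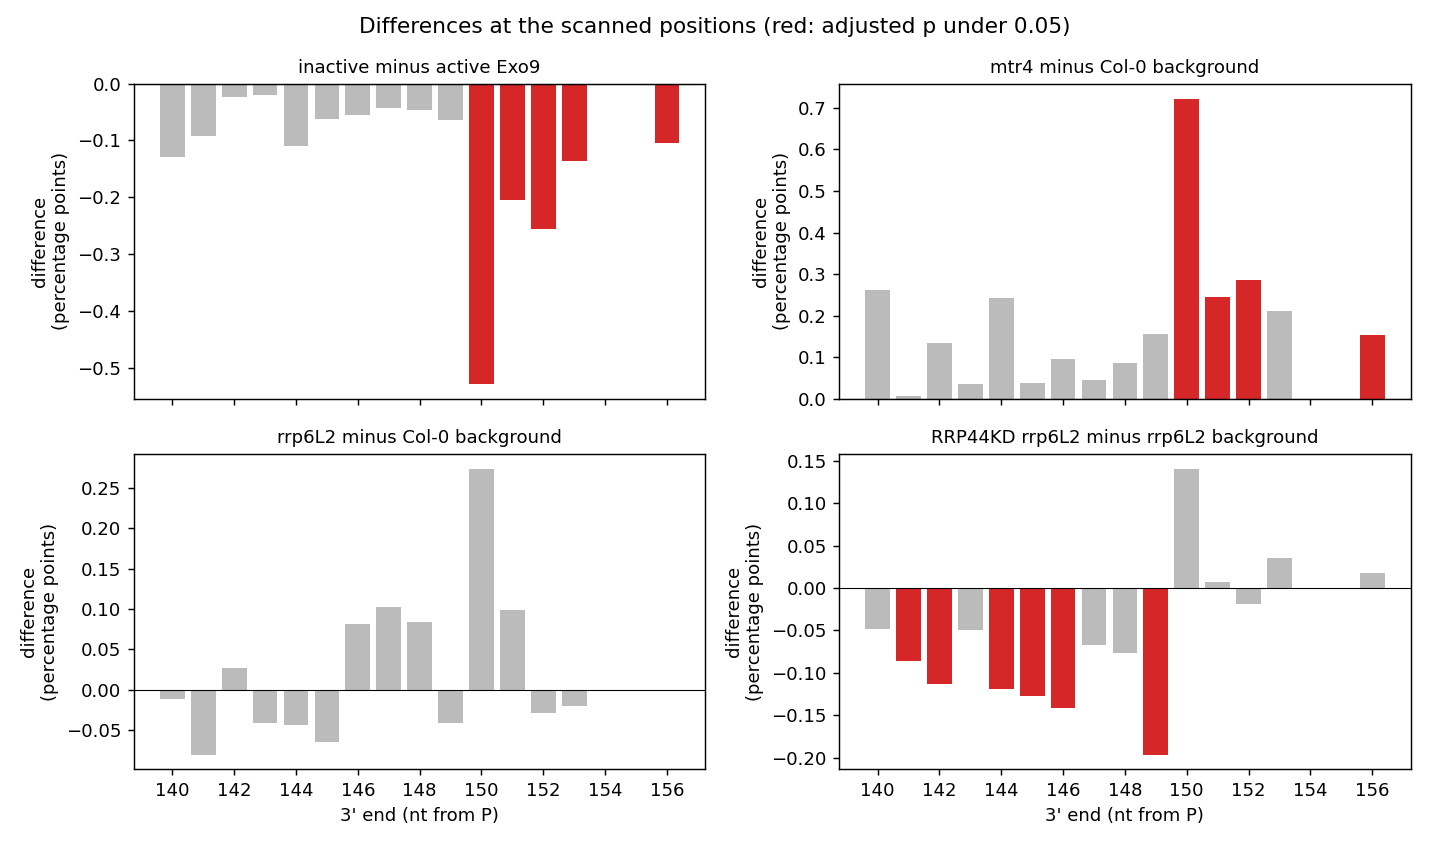
Difference in the share of untailed reads at each scanned end (bars, percentage points; red where the adjusted p is under 0.05) for inactive against active Exo9 and for 3 pairs of backgrounds; P154 and P155 were not scanned. Red bars stand from P150 on in the upper panels (5 and 4 ends), at 6 ends up to P149 in the RRP44KD panel, and nowhere in the rrp6L2 panel.

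Between the mtr4 and Col-0 backgrounds, 4 of the 15 ends were higher in mtr4, which are P150, P151, P152 and P156, against 16.4% of the 110 positions. P150 rose by 0.72 points (exact adjusted p = 0.015 in the exact test within Exo9 states), P151 by 0.24 points (exact adjusted p = 0.0246), P152 by 0.29 points (exact adjusted p = 0.0399) and P156 by 0.15 points (exact adjusted p = 0.0291). P153 missed the threshold (0.21 points, exact adjusted p = 0.0501). P156 passed the read filter only through the active mtr4 libraries, so its call is no independent support. With active Exo9, P150 was 8.10-fold and P151 8.88-fold as frequent as in Col-0, and 3.48-fold and 5.64-fold in reference-base reads. P151 rests on 9 reads in active Col-0 libraries. In reference-base reads 3 of 15 were higher, P150, P151 and P156, against 23.5% of the 51 positions. The call at P150 was kept without any single library, but leaving out 1 library took the count to 1 (without Col-0 replicate 1, without either replicate of rrp41 RRP41WT, or without mtr4 rrp41 RRP41Pi-Cat- replicate 2) or to 2 (without mtr4 replicate 1 or replicate 2).

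In the rrp6L2 background against Col-0, over both Exo9 states, none of the 15 ends was called higher or lower, where 4.55% of positions were higher. P147, P150 and P151 were higher at an unadjusted exact p under 0.05, but so were positions outside the stretch, so this is not a result about these ends. P150 was 0.656% ± 0.143 in active rrp6L2 and 0.154% ± 0.0775 in active Col-0 libraries (SD, n = 4 each), with no overlap, but with inactive Exo9 it was 0.141% ± 0.115 (n = 2) and 0.0953% ± 0.0715 (n = 4), and the test over both states gave 0.27 points (exact adjusted p = 0.105). P147 was 0.252% ± 0.0615 against 0.0684% ± 0.0581 with active Exo9. In reference-base reads P147 was the 1 end called higher (0.22 points, exact adjusted p = 0.0208), against 15.7% of positions.

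With RRP44 downregulated in rrp6L2, over both Exo9 states, 6 of the 15 ends were lower and none was higher. Of the 110 positions, 26.4% were lower and 8.18% were higher. All 6 are among the 10 scanned ends up to P149, of which P140, P143, P147 and P148 were not called. P145 fell by 0.13 points as the mean over both Exo9 states (exact adjusted p = 0.0218). In active rrp6L2 libraries it was 0.366% and 0.170% with endogenous RRP41 and 0.267% and 0.328% with RRP41WT. In active RRP44KD rrp6L2 libraries it was 0.0951%, 0.0677%, 0.0703% and 0.0697% in the same order, a mean difference of -0.207 points. With inactive Exo9 the means were 0.0793% in rrp6L2 and 0.0318% in RRP44KD rrp6L2 (n = 2 each). P149 fell by 0.20 points (exact adjusted p = 0.0327), P144 by 0.12 points (exact adjusted p = 0.0218) and P141 by 0.09 points (exact adjusted p = 0.0327). The others, P142 and P146, were named after their values were seen, and fell by 0.11 and 0.14 points (exact adjusted p = 0.0218 each). P150 was not called, as the difference was 0.14 points (exact adjusted p = 0.244). P150 made up 34.2% ± 5.25 of the reads from P140 to P156 in active RRP44KD rrp6L2 against 18.8% ± 1.21 in active rrp6L2 libraries (SD, n = 4 each, exact permutation p = 0.0286, the smallest that this size allows, in a test added after the values were seen). Such a proportion rises when other ends of the stretch fall, so it does not show a rise of P150 itself. The same 6 ends were lower in reference-base reads, where 29.4% of positions were. Leaving out RRP44KD rrp6L2 replicate 2 or either replicate of RRP44KD rrp6L2 rrp41 RRP41WT left 3 calls.

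Untemplated tails set the ends P154 to P156 apart. Over all libraries, 22.1% of the 7482 reads whose encoded part ended from P140 to P156 carried a tail of 1 nt or more, but this was 75.0% of 164 reads at P154, 71.6% of 95 at P155 and 63.8% of 406 at P156, against 12.1% of 1260 reads at P150 and 1.83% of 383 at P145. Reads at P154 to P156 were tailed in 50% or more of cases in each of the 13 genotypes. Their tails were 91.0% A and had a median of 5 nt. Longer tails were kept by the study only where they held stretches of A or T, so these values describe the tails that passed. A tail whose first nucleotide equals the next reference base is recorded as an encoded end 1 nt longer, so an A added at P146 or P153 is counted at P147 or P154. Accordingly no tail at P146 or P153 was made of A alone. The ends just before P155 and P156 are followed by T and G.

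**Figure D5:**
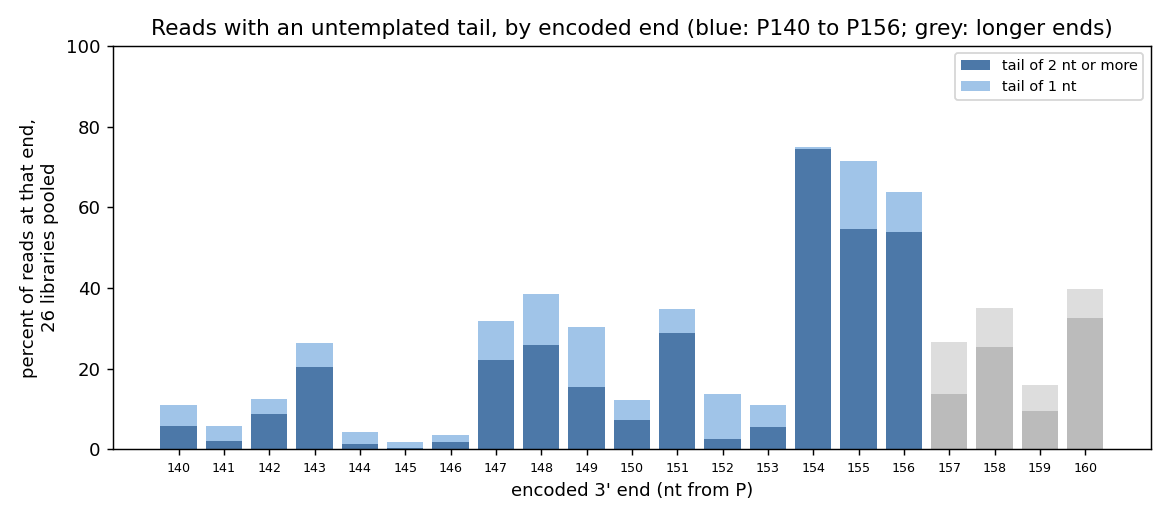
Percent of reads at each encoded 3′ end that carry an untemplated tail, with tails of 2 nt or more (dark) and of 1 nt (light) stacked and the 26 libraries pooled, for P140 to P156 (blue) and the next 4 ends (grey). P154, P155 and P156 stand at 75.0%, 71.6% and 63.8%, above the other 14 ends, of which P148 is the highest at 38.5%.

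Compared with longer ends from P157 to 200, the tailed share of ends from P140 to P156 differed by 3.74 points over the 13 genotypes (exact sign-flip permutation test, p = 0.148, exact adjusted p = 0.185), and was higher in 7 of 13. For tails of 2 nt or more it was higher by 6.86 points and in 12 of 13 genotypes (exact sign-flip permutation p = 0.00317), with mtr4 rrp41 RRP41Pi-Cat- as the exception at -6.52 points. The largest difference was in rrp41 RRP41WT, with 27.7% against 3.46%.

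Of the ends outside this stretch, P159 (Spearman rho = 0.763), P158 (0.719), P137 (0.685), P157 (0.599) and P239 (0.557) had shares most like the summed share over the 26 libraries, among 95 positions. All these shares have the same untailed reads as denominator. Within the stretch, P150 and P151 varied together (rho = 0.876), as did P142 and P145 (0.839). These correlations describe the libraries and were not tested.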

How the data were processed

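The authors deposited 1 table of 3′RACE-seq reads, 224354 in 26 libraries, with the encoded part, 3′ end position and added nucleotides of every read. These are positions and sequences, not counts or a normalized unit. By the study's methods, duplicates were removed with the random nucleotides, and the last 20 encoded nt had to match the reference. Unmatched reads were shortened stepwise by at most 30 nt until they matched, and what was cut off was recorded as a tail. Reads in which the second nucleotide matched the reference were removed. Longer tails were kept only if they held stretches of A or T, and the longest needed more of these stretches.

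Alternatives were the reference-base denominator, a replicate block, other limits of the stretch, tail lengths and leaving out each library. Replicate numbers were not treated as pairs. P-values measure the spread between libraries, each from a pool of plants. Groups that join different forms of RRP41 also hold the spread between genotypes. The sign-flip tests measure the spread between genotype means. The tests that compare changes with inactive Exo9 also hold the spread between backgrounds. Wilson intervals are at 95%. Libraries held 1621 to 23152 reads, of which 1464 to 16835 were untailed. Reads per position were counted and divided by all untailed reads of the library. Groups were compared by two-sided exact permutation tests within backgrounds, with Benjamini-Hochberg adjustment over the 110 positions with at least 50 untailed reads or over the 10 tests on the summed share, and a threshold of 0.05. The scan was tested on simulated data. The 6 positions with the highest mean share over the libraries, and the others called in the Exo9 scan, are given by library, group mean or range. P140, P142, P146, P147, P154 and P155 and the tests on P150 alone were added after their values were seen. The positions and alternatives were chosen with earlier results of these data known. Analyses were run in Python 3.11.15 with scipy 1.17.1, numpy 2.4.6 and pandas 2.3.3, and plots were drawn with matplotlib 3.10.9.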

Additional observations from a re-analysis of the deposited data

Results flagged for a closer look

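The change of P150 with inactive Exo9 differed between backgrounds: it was smaller in Col-0 than in the other 3 by 0.625 percentage points (exact permutation test of 2 against 6 changes, p = 0.0357, the smallest this size allows), in a test added after the values were seen. The active Col-0 mean was 0.154%, so a fall there could not be larger than this, and the difference in points cannot be told apart from that lower starting level. In reference-base reads the difference was 0.508 points (exact p = 0.286).

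Among 50 groups of 4 libraries examined, a single library stood apart in 4 by Dixon's criterion, where chance flags about 1 in 20. RRP44KD rrp6L2 rrp41 RRP41WT replicate 2 had 0% at P144, where the other 3 active libraries had 0.0703% to 0.0815%, below the 0.105% that 3 reads make in this library. RRP44KD rrp6L2 replicate 1 had 0.0951% at P145, where the others had 0.0677% to 0.0703%. Replicate 1 of rrp6L2 had 0.314% at P151, where the others had 0.183% to 0.202%. Replicate 1 of rrp41 RRP41Pi-Cat- had 0.0121% at P156, which is 1 read and under its floor of 3 reads, and the other 3 inactive Col-0 libraries had 0%. These values at P144 and P156 therefore say nothing about the libraries.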

How the results depend on the processing

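In reference-base reads the Exo9 difference over the 4 backgrounds was -1.211 points (exact p = 0.153), mtr4 minus Col-0 4.195 (exact p = 0.0571) and rrp6L2 minus Col-0 -1.047, a reversed direction (exact p = 0.314), and 1 end was called for rrp6L2 against 0. Without libraries under 3000 reads as well, these differences were -1.191, 3.957 and -1.285, and without mtr4 replicate 2 the first and the second were -0.8404 and 2.711 (both sets of alternatives were chosen after seeing the data). Without its 5 shortest positions, the stretch differed by 1.109 points between rrp6L2 and Col-0 (exact p = 0.0286). With tailed ends included, the change in mtr4 differed from that in the other backgrounds by -2.219 (exact p = 0.0357). For tails of 2 nt or more the tailed share was higher by 6.855 points, and by 7.617 against reference-base longer ends. The cause of these shifts was not tested.

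Replicate deviations of different genotypes had a median correlation of -0.0444 over 78 pairs, with 32 over 0.1 and a range from -0.892 to 0.83. No common pairing over the genotypes was seen, but these values cannot exclude one within a background. When libraries were relabelled only within a replicate block, the differences of 4.331 points (mtr4 minus Col-0) and 3.104 (mtr4 minus rrp6L2) had an exact p of 0.0556, the smallest the block allows, and the scans called 5, 4, 0 and 6 ends as without it.

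Leaving out 1 library at a time gave -2.205 to -1.605 points for the Exo9 difference, -0.6129 to 0.1114 within Col-0 (above 0 only without Col-0 replicate 1), 2.141 to 3.595 for mtr4 minus rrp6L2, -3.038 to -0.9272 for the change in mtr4 against other backgrounds and -1.538 to -0.4475 for RRP41WT against endogenous RRP41. The last passed the test without mtr4 replicate 1 or rrp6L2 replicate 2, and the one before it without mtr4 rrp41 RRP41WT replicate 2 or rrp6L2 rrp41 RRP41Pi-Cat- replicate 1. The scans called 5 ends throughout for Exo9, 1 to 5 for mtr4, 0 to 2 for rrp6L2 and 3 to 7 for RRP44KD. P150 kept its call in all 35 alternatives for Exo9 and all 23 for mtr4, while in mtr4 P152 lost it in 12, P156 in 10 and P151 in 4. Libraries with under 20 reads in the stretch limit single positions.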

Other observations

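Reads with a single added nucleotide at P136 numbered 190, and in 169 of them this nucleotide was C, the same letter as in T137C.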
